A study of Homo sapiens with 24 samples.

Results

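The genes described here are 40 human genes of the hypoxia response and of glycolysis, chosen by name for these functions. They were chosen with earlier results of these data known, so an excess of calls among them is no independent test. All 40 symbols were matched among the 58051 genes of the count tables. They comprise 16 glycolytic enzymes, 23 other targets of the hypoxia-inducible factors (HIFs), and HIF1A, which encodes the oxygen-regulated HIF-1 alpha subunit. The question asked of them was how their transcripts differed between Ocoxin-treated and control cells in each of 4 cancer cell lines, and whether the glycolytic enzymes behaved like the other HIF targets.

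Ocoxin is a nutritional supplement that combines plant-derived extracts with vitamins and other nutrients. It was given for 48 h, in RPMI-1640 medium with 1% fetal bovine serum, to SW620 cells (colorectal adenocarcinoma, COAD), BxPC-3 cells (pancreatic adenocarcinoma, PAAD), LNCaP cells (prostate adenocarcinoma, PRAD) and HCC-70 cells (triple negative breast cancer, TNBC), and poly(A) RNA of the cells that were still attached was sequenced in 3 control and 3 Ocoxin libraries per line. The dilution was 1:50 in PRAD, 1:500 in PAAD and 1:700 in both COAD and TNBC, doses that the study had picked from viability assays. The labels print the dilution on control libraries too, so the letter C or O of each title decided the group. Each cancer type was thus represented by 1 cell line, and apart from COAD and TNBC the cell line and the dilution cannot be told apart. Neither the labels nor the methods name a low-oxygen treatment.

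The 6 PRAD libraries held 9063968 to 9520969 counts and the other 18 libraries 25160757 to 39009959. A fragment mostly gave 1 count in PRAD and 2 in the other lines, so levels were not compared between PRAD and the rest. Levels are given as CPM, the counts scaled to a common library size by TMM. A gene is called altered, upregulated or downregulated, where edgeR's two-sided quasi-likelihood F-test, adjusted by Benjamini-Hochberg over all genes tested in that line, gave p under 0.05, with no minimum fold change. Each comparison had 3 libraries per group, and the value after ± is the SD of 3 libraries for CPM and the SE for a log2 fold change. The labels do not say that replicates were separate cultures, so the p-values measure only the spread between these libraries. The control and the Ocoxin replicate 3 library deviated alike from their group means in each line. Over genes with a mean of at least 10 CPM, these deviations correlated at 0.503 (COAD), 0.615 (PAAD), 0.605 (PRAD) and 0.629 (TNBC). All are Pearson's r across genes, which are not independent. In COAD this did not single out replicate 3: replicate 1 had 0.399, and control replicate 2 had 0.408 with an Ocoxin library of another number. Counts of members called are therefore also given without the replicate 3 libraries and with the replicate number as a block. VIL1 was highest in COAD (526 CPM in controls, at most 0.634 in PAAD and TNBC) and KLK3 was present in PRAD (403 CPM), whereas the keratin genes KRT19 (listed for PAAD) and KRT5 (listed for TNBC) were high in both lines: KRT19 had 1292 CPM in PAAD and 1530.1 in TNBC, and KRT5 3133 and 1600.0. Of the other genes listed for TNBC, KRT17 (2344 CPM in PAAD controls, 262 in TNBC controls) and EGFR (596 and 500) were higher in PAAD. KRT14 (23.8 and 101) was higher in TNBC. Of the receptor genes listed as low in TNBC, PGR had 0 counts there, ESR1 6.85 CPM and ERBB2 248 CPM. Among stromal and immune genes, PTPRC and COL1A2 had at most 6 counts in any library and DCN at most 16, whereas COL1A1 reached 51.1 CPM in PRAD controls. CD3E and PECAM1 had 2.12 and 4.14 CPM in PAAD controls, so not every gene listed as absent was absent.

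Under normal oxygen, prolyl hydroxylases of the EGLN family mark HIF-alpha subunits for destruction, whereas in hypoxia the subunits accumulate, pair with ARNT and bind hypoxia response elements near their target genes. The targets raise glucose uptake and lactate production, hold back the entry of pyruvate into mitochondria, export acid, remodel collagen and remove mitochondria. Many carcinoma lines transcribe part of this programme in ordinary culture. In bulk RNA such as this, fewer cells that express a gene and less RNA per cell cannot be told apart.

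The promoters of the members were described by a sequence feature. HIFs bind hypoxia response elements near their targets, and members were chosen as HIF targets or glycolytic genes. The feature is therefore not independent of the choice, and a higher share among members is no test of it. The core of the hypoxia response element was searched as ACGTG or GCGTG on both strands in the 250 bases before the gene start, in the RefSeq promoter table (GRCh38.p14). An entry was found for 36 of the 40 members, the exceptions being BNIP3L, NDRG1, SLC2A3 and VEGFA. At least 1 match was present in 27 of 36 members (75%), against 11763 of all 27305 promoters of that length (43.08%). The share was 12 of 16 (75%) among glycolytic enzymes and 14 of 19 (73.68%) among the other HIF targets. The letters CACGTG, which contain ACGTG on both strands and are also read by other basic helix-loop-helix factors, were present in 6 of 36 members (16.67%) and in 1772 of all promoters (6.49%). The set of all promoters was not matched to the members in base composition.

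Printed here, 5′ to 3′ on the strand of the gene, with the matches in capitals (ACGTG or GCGTG, or CACGT or CACGC where the match lies on the opposite strand), are 4 promoters of members that were downregulated in TNBC and hold matches (CA9, chr9:35673678-35673927, plus strand; BNIP3, chr10:131981924-131982173, minus strand; LDHA, chr11:18394313-18394562, plus strand; PGK1, chrX:78103998-78104247, plus strand), the promoter of EGLN3 (chr14:33951075-33951324, minus strand), which was downregulated as well and holds no match in this window, and that of BHLHE40 (chr3:4979187-4979436, plus strand), which holds matches and was not called altered in any line.
CA9: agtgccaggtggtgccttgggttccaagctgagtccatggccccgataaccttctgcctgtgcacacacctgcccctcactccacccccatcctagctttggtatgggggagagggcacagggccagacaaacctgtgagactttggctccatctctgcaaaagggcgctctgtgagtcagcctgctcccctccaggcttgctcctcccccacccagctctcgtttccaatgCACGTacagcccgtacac
BNIP3: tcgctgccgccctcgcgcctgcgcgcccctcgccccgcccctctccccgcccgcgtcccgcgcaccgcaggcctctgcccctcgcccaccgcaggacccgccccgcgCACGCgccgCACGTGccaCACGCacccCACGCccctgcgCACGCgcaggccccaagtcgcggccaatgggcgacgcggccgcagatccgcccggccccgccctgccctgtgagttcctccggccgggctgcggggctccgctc
LDHA: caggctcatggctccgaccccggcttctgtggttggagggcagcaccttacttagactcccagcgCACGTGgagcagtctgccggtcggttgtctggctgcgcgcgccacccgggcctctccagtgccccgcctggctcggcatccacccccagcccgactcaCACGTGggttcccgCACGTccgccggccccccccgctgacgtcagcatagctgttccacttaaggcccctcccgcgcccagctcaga
PGK1: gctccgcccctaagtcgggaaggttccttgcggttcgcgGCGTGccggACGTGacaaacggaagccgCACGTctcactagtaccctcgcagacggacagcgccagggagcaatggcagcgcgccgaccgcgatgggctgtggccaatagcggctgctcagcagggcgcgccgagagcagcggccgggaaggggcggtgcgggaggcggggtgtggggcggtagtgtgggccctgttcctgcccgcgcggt
EGLN3: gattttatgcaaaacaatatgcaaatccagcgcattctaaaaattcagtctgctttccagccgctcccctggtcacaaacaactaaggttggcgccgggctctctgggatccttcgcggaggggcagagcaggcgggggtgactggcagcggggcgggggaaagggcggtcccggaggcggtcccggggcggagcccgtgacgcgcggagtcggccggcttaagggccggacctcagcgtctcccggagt
BHLHE40: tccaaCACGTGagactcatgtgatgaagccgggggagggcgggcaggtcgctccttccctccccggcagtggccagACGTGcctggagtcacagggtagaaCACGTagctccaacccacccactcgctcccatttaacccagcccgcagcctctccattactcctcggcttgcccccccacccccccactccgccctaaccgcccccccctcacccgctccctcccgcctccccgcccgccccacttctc

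CA9 holds 1 match, which begins 18 bases before the start, and BNIP3 holds 6, of which 2 have the form ACGTG. LDHA holds 5 matches, which include CACGTG at 2 places, and PGK1 holds 3. BHLHE40 holds 4. Among members with an entry, a match was present in 21 of the 29 that were downregulated in TNBC (72.41%) and in 6 of the 7 that were tested there and not called (85.71%). A match is a description of the letters in this window and says nothing of binding.

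In TNBC, Ocoxin was accompanied by lower transcripts of most of these genes. Of 39 members tested, 31 were downregulated and 0 upregulated by edgeR, while of all 17352 genes tested 21% were called altered, 9.65% up and 11.3% down. DESeq2 called 29, all lower, beside 24.9% of all genes, and the count at an unadjusted p under 0.05 by edgeR was 33. The 3 Ocoxin libraries lay below the 3 control libraries for each of the 31, which were called on these same libraries. That separation adds no support of its own, and its share over all genes tested was not counted. The same holds for the called members of the other lines. Both classes took part, with 14 of 16 glycolytic enzymes and 17 of 22 other HIF targets called, but the sizes differed: the median log2 fold change was -0.30 for the enzymes and -0.54 for the other targets, beside 0.0056 over all genes tested. SLC2A3 was not tested in TNBC, with at most 6 counts per library.

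**Figure D1:**
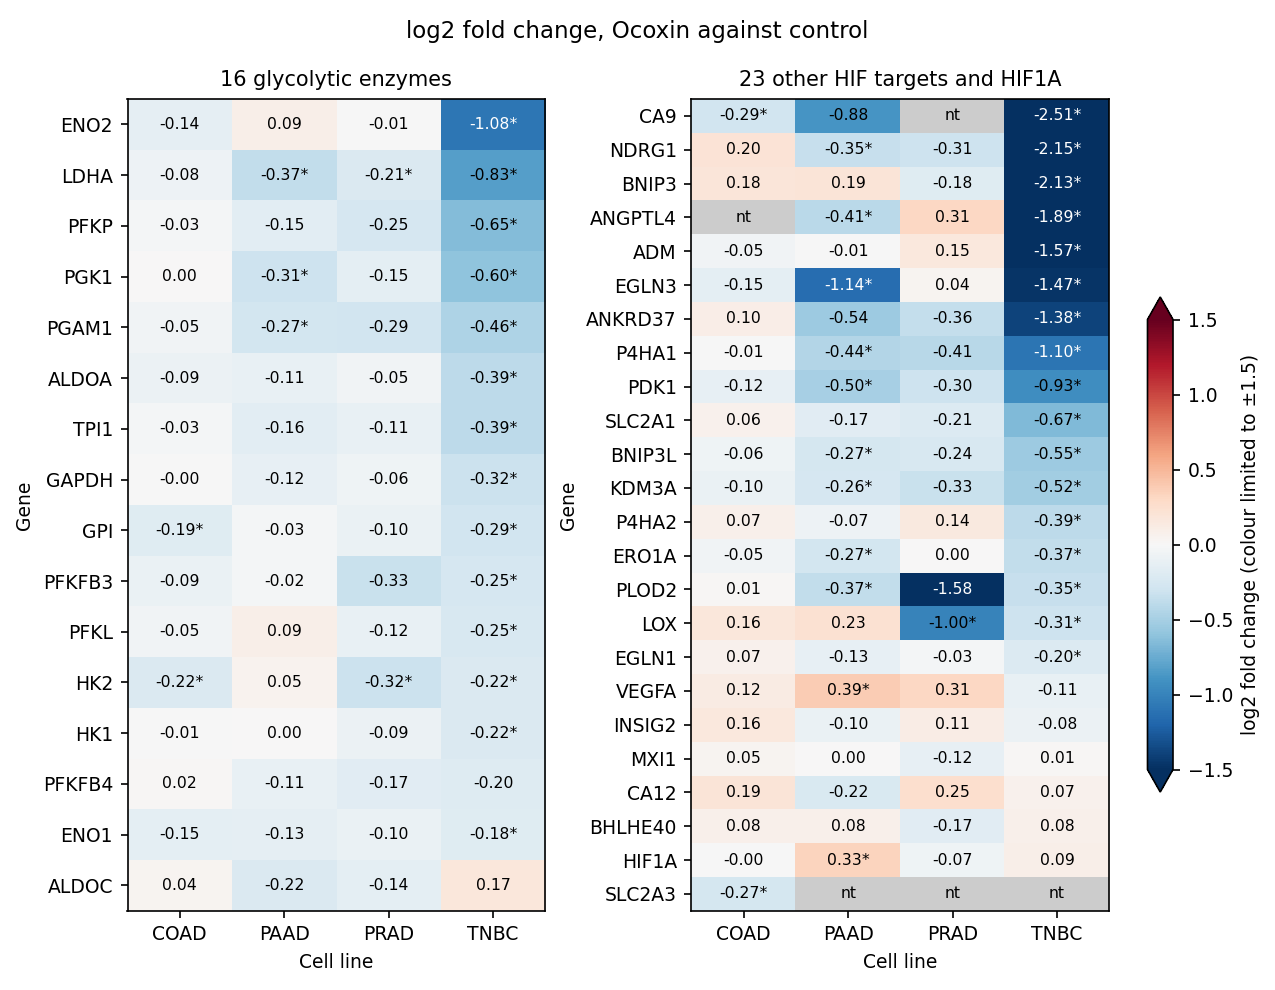
Log2 fold changes (Ocoxin against control) of the 40 members in the 4 cell lines, with glycolytic enzymes on the left and other HIF targets and HIF1A on the right, each ordered by TNBC. Asterisks mark genes called altered by edgeR (adjusted p under 0.05, n = 3 and 3) and "nt" genes not tested, and the TNBC column holds 31 of the calls, all of them negative, against 4 in COAD, 14 in PAAD and 3 in PRAD.

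The largest decrease in TNBC was that of CA9, a cell-surface carbonic anhydrase that helps to export acid, which had 16.98, 18.9 and 22.1 CPM in the control libraries and 4.01, 3.04 and 3.13 CPM in the Ocoxin libraries. It fell to 0.176 of the control level (log2 fold change -2.51 ± 0.13, edgeR adjusted p = 3.77e-07). Of the exonic bases of CA9, 38.5% are shared with ARHGEF39, and the counting used no strand, so its value is uncertain to that extent. ADM, the vasodilator peptide adrenomedullin, had 4.57, 4.41 and 5.02 CPM in the control libraries and 1.34, 1.61 and 1.76 CPM in the Ocoxin libraries (log2 fold change -1.57 ± 0.16, edgeR adjusted p = 4.57e-05). ANGPTL4, a secreted inhibitor of lipoprotein lipase, had 3.32, 3.202 and 3.38 CPM in the control libraries and 1.26, 0.968 and 0.4396 CPM in the Ocoxin libraries (log2 fold change -1.89 ± 0.27, edgeR adjusted p = 6.30e-04). The control and Ocoxin libraries did not overlap for any of these 3 genes of secreted or surface proteins. The angiogenic factor VEGFA stood at 270.0 ± 2.57 CPM in control and 250.3 ± 16.4 CPM with Ocoxin (-0.11, edgeR adjusted p = 0.107) and the carbonic anhydrase gene CA12 at 10.97 ± 0.823 CPM in control and 11.5 ± 1.62 CPM with Ocoxin (0.068, edgeR adjusted p = 0.717), neither of them called.

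NDRG1, a gene induced by hypoxia and other stress, had 263, 266 and 294 CPM in the control libraries and 61.8, 57.97 and 66.02 CPM in the Ocoxin libraries. Its Ocoxin level was 0.226 of control (log2 fold change -2.15 ± 0.057, edgeR adjusted p = 1.25e-09), and the groups lay far apart. BNIP3, a mitophagy receptor of the outer mitochondrial membrane, had 7.76, 6.299 and 12.1 CPM in the control libraries and 2.15, 1.69 and 2.09 CPM in the Ocoxin libraries (log2 fold change -2.13 ± 0.25, edgeR adjusted p = 4.46e-04). Control replicate 3 was the highest of its libraries, and the groups did not overlap. As 44 pseudogenes took 32.3% of the reads of BNIP3 and its copies in TNBC, its level is uncertain. The related receptor gene BNIP3L fell less (-0.55, edgeR adjusted p = 2.24e-04), as did ERO1A, an oxidase that helps disulphide bonds to form in the endoplasmic reticulum (-0.37, edgeR adjusted p = 2.60e-04). INSIG2, a regulator of sterol synthesis, was not called (-0.083, edgeR adjusted p = 0.232).

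**Figure D2:**
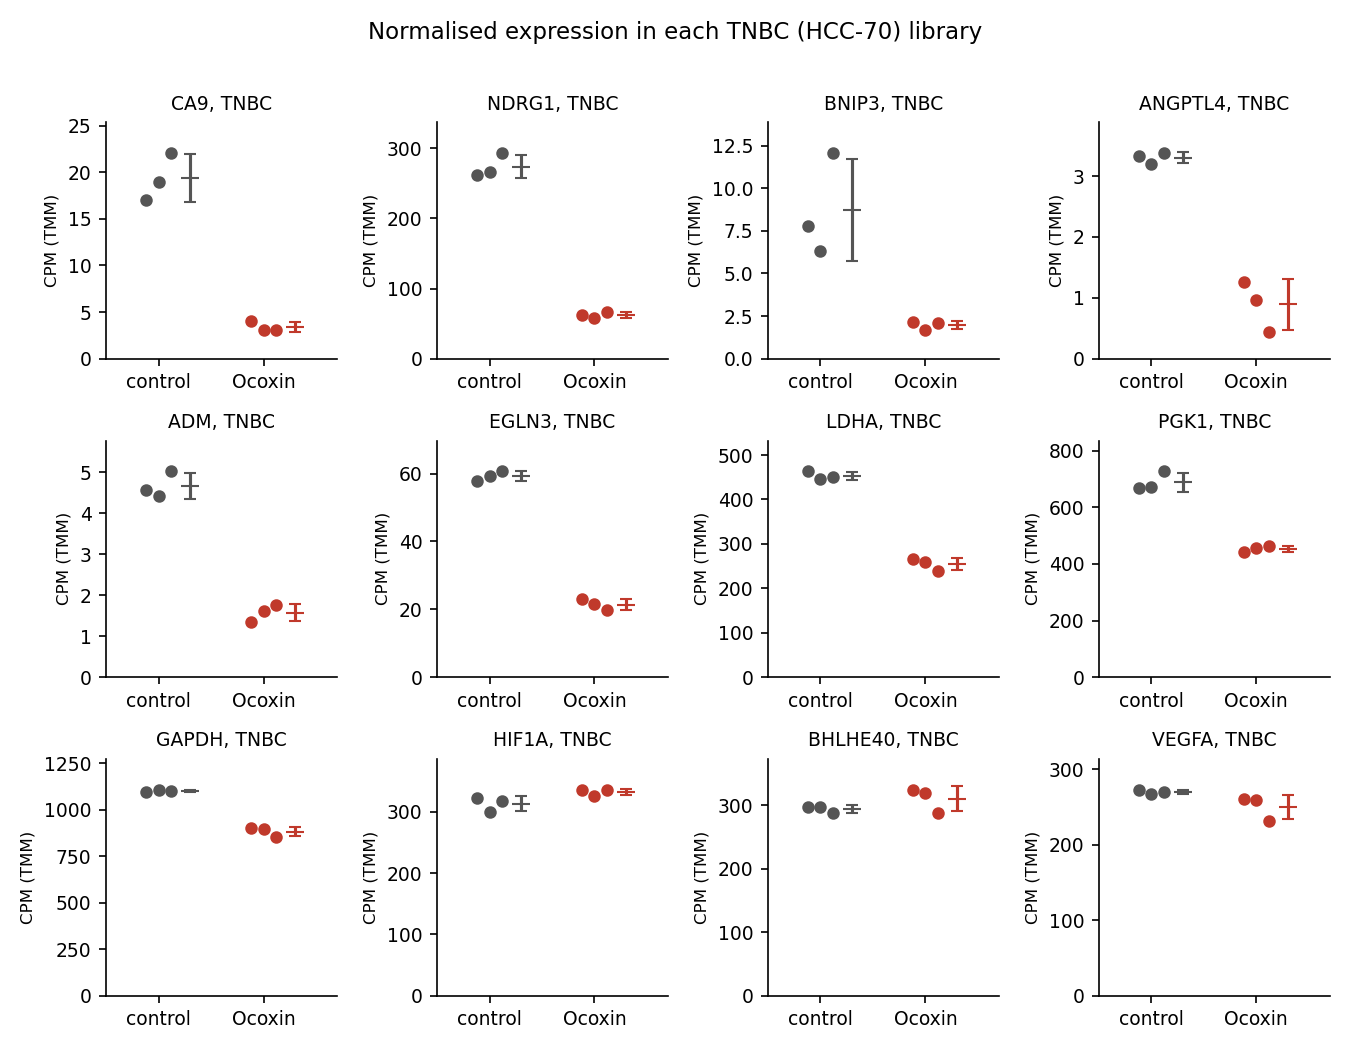
Normalised expression (CPM, TMM scaled) of 12 members in each of the 6 TNBC libraries; points are libraries in replicate order, and the bar beside them is the mean ± SD of 3. Control and Ocoxin points are apart for CA9, NDRG1, BNIP3, ANGPTL4, ADM, EGLN3, LDHA, PGK1 and GAPDH, whereas those of BHLHE40 overlap and those of HIF1A and VEGFA lie close together.

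Among the oxygen sensors and regulators in TNBC, EGLN3 had 57.8, 59.3 and 60.7 CPM in the control libraries and 23.1, 21.5 and 19.7 CPM in the Ocoxin libraries, without overlap (log2 fold change -1.47 ± 0.062, edgeR adjusted p = 4.53e-08). EGLN1, which encodes the main HIF prolyl hydroxylase, fell by far less, from 119.7 ± 2.89 to 104 ± 2.48 CPM (-0.20, edgeR adjusted p = 0.00437). The histone demethylase gene KDM3A (-0.52, edgeR adjusted p = 4.57e-05) and ANKRD37, an ankyrin repeat gene (-1.38, edgeR adjusted p = 0.0119), were also downregulated. ANKRD37 had 12 to 54 counts per library, and 35.2% of its exonic bases are shared with UFSP2. The transcriptional repressor gene BHLHE40 (0.077) and the MYC antagonist gene MXI1 (0.013) were not called.

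HIF1A itself had 322, 301 and 318 CPM in the control libraries and 336, 327 and 336 CPM in the Ocoxin libraries. It was not called (log2 fold change 0.085 ± 0.037, edgeR adjusted p = 0.124), although the Ocoxin libraries lay slightly above the controls. With the replicate number as a block it was called upregulated (adjusted p = 0.0176), as was BHLHE40 (adjusted p = 0.0455), while PFKFB4 (adjusted p = 0.0409) and VEGFA (adjusted p = 0.00369) were called downregulated and GPI was no longer called (adjusted p = 0.12). In that fit 34 members and 33.9% of all genes were called in TNBC. The protein, through which oxygen acts on HIF-1 alpha, was not measured.

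Each step of glycolysis from hexokinase to enolase, and lactate dehydrogenase, had at least 1 enzyme gene that was downregulated in TNBC. LDHA, which turns pyruvate into lactate, had 463, 446 and 452 CPM in the control libraries and 266, 259 and 239.6 CPM in the Ocoxin libraries, without overlap (log2 fold change -0.83 ± 0.042, edgeR adjusted p = 1.86e-07). ENO2, the neuronal form of enolase, fell from 14.7 ± 0.875 to 6.98 ± 1.02 CPM (-1.08, edgeR adjusted p = 3.77e-05), whereas the main form ENO1 fell from 1906 ± 33.5 to 1679 ± 46.8 CPM (-0.18, edgeR adjusted p = 0.00161). The phosphoglycerate kinase gene PGK1 went from 688 ± 33.1 to 453 ± 10.7 CPM (-0.60, edgeR adjusted p = 1.43e-06). PGAM1, the mutase of the next step, fell as well (-0.46, edgeR adjusted p = 8.55e-05).

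In the middle of the pathway, ALDOA (-0.39), TPI1 (-0.39) and GAPDH (-0.32) had log2 fold changes close to each other, and GAPDH, often used as a reference gene, went from 1101 ± 6.73 to 883 ± 24.4 CPM (edgeR adjusted p = 3.77e-05). At the upper steps, the hexokinase gene HK1 (-0.22), the isomerase gene GPI (-0.29), the phosphofructokinase genes PFKL (-0.25) and PFKP (-0.65) and PFKFB3, whose product makes an activator of phosphofructokinase (-0.25), were all called. HK2, the inducible hexokinase, had 62.01, 60.4 and 68.1 CPM in the control libraries and 55.7, 52.9 and 54.8 CPM in the Ocoxin libraries, without overlap (log2 fold change -0.22 ± 0.055, edgeR adjusted p = 0.0122). ALDOC (0.17, 27 to 42 counts per library) and PFKFB4 (-0.20) were the 2 enzymes not called.

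SLC2A1, the glucose transporter GLUT1, fell from 192 ± 4.699 to 121 ± 3.51 CPM in TNBC (-0.67, edgeR adjusted p = 5.63e-07), and PDK1, a kinase that holds pyruvate dehydrogenase inactive, from 36.8 ± 4.304 to 19.3 ± 0.114 CPM (-0.93, edgeR adjusted p = 1.42e-05). All 4 collagen-modifying genes were downregulated, namely the prolyl hydroxylase subunits P4HA1 (-1.10) and P4HA2 (-0.39), the lysyl hydroxylase gene PLOD2 (-0.35) and LOX, which crosslinks collagen (-0.31). Leaving out 1 of the 6 TNBC libraries at a time gave 27 to 29 calls, beside 12.9% to 21.8% of all genes. Leaving out both replicate 3 libraries gave 30 (29 down, 1 up), beside 25.6% of all genes. The calls of HK2 (without Ocoxin replicate 2), ANKRD37 (without control replicate 3 or Ocoxin replicate 2), GPI (without Ocoxin replicate 1 or 3), PFKFB3 (without Ocoxin replicate 1 or 2), PFKP (without any but control replicate 3) and LOX (without any but Ocoxin replicate 2) were lost, with adjusted p up to 0.0595, 0.0597, 0.12, 0.117, 0.134 and 0.185 over all alternatives.

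In PAAD fewer members were altered than in TNBC, and in both directions. Of 39 members tested, 14 were altered, 12 of them down and 2 up, beside 8.33% of all 17280 genes (4.72% up and 3.62% down). Other HIF targets made up most of the calls, with 10 of 22 against 3 of 16 glycolytic enzymes, and the median log2 fold changes were -0.24 and -0.12, against 0.0027 over all genes. With the replicate block, 22 members were called (20 down, 2 up) and 9 of them were glycolytic enzymes, so the gap between the classes in the number of calls depended on that choice. The block also raised the share of all genes called, to 23.1%. The 8 genes gained with the block were PFKP, ALDOA, ALDOC, TPI1, GAPDH, ENO1, SLC2A1 and CA12, with log2 fold changes from -0.22 to -0.10. Without the replicate 3 libraries 22 members (20 down, 2 up) and 13.1% of all genes were called.

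HIF1A was upregulated in PAAD, with 555, 580.0 and 581 CPM in the control libraries and 713, 715 and 728 CPM in the Ocoxin libraries. Ocoxin libraries were all above the controls (log2 fold change 0.33 ± 0.049, edgeR adjusted p = 6.09e-04). VEGFA moved the same way, with 308, 337 and 339 CPM in the control libraries and 438, 437 and 410.4 CPM in the Ocoxin libraries, again without overlap (log2 fold change 0.39 ± 0.056, edgeR adjusted p = 4.79e-04). HIF1A and VEGFA in PAAD were the only members called upregulated in any line with edgeR fitted per line to all 6 libraries after the filter and without the block.

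EGLN3 had the largest decrease in PAAD, with 109.7, 105 and 104 CPM in the control libraries and 40.8, 45.7 and 57.8 CPM in the Ocoxin libraries (log2 fold change -1.14 ± 0.095, edgeR adjusted p = 1.77e-06). Its Ocoxin libraries differed among themselves, replicate 3 being the highest, and stayed well below the controls. PDK1 had 24.7, 27.6 and 29.8 CPM in the control libraries and 16.8, 18.6 and 22.8 CPM in the Ocoxin libraries (log2 fold change -0.50 ± 0.11, edgeR adjusted p = 0.00927). P4HA1 had 94.6, 99.1 and 105 CPM in the control libraries and 66.7, 70.5 and 82.3 CPM in the Ocoxin libraries (log2 fold change -0.44 ± 0.075, edgeR adjusted p = 0.00171). For both genes Ocoxin replicate 3 was again the highest of its group and lay below every control. ANGPTL4 had 12.5, 12.4 and 10.8 CPM in the control libraries and 8.51, 9.77 and 8.67 CPM in the Ocoxin libraries (log2 fold change -0.41 ± 0.11, edgeR adjusted p = 0.0259). PLOD2 had 138, 144 and 155 CPM in the control libraries and 104, 107 and 126 CPM in the Ocoxin libraries (log2 fold change -0.37 ± 0.072, edgeR adjusted p = 0.0045). No library of these genes crossed between the groups, but they were called on these same libraries, so this adds no support.

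**Figure D3:**
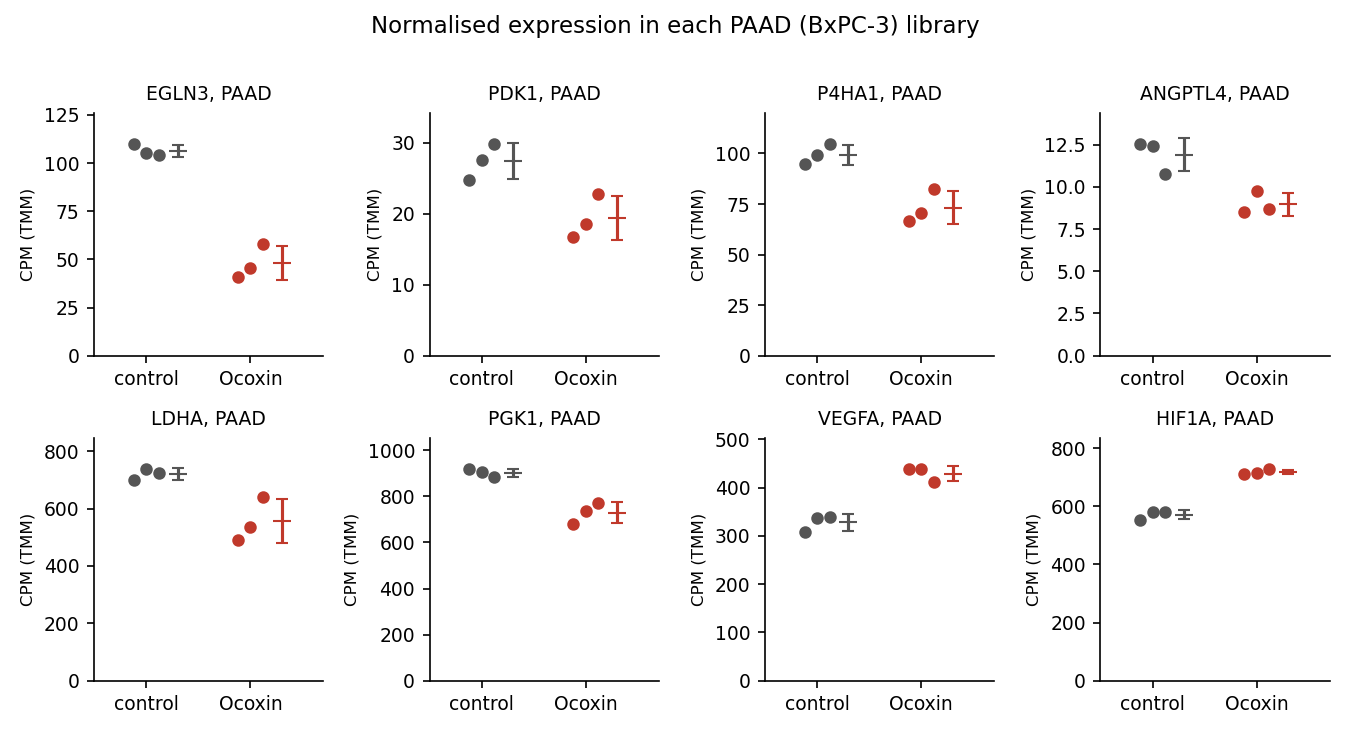
Normalised expression (CPM, TMM scaled) of 8 members in each of the 6 PAAD libraries; points are libraries in replicate order, and the bar is the mean ± SD of 3. EGLN3, PDK1, P4HA1, ANGPTL4, LDHA and PGK1 are lower with Ocoxin, and VEGFA and HIF1A are higher, without overlap between the groups.

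Among glycolytic enzymes in PAAD, LDHA had 698, 738 and 726 CPM in the control libraries and 491, 537 and 640.0 CPM in the Ocoxin libraries (log2 fold change -0.37 ± 0.076, edgeR adjusted p = 0.00632), and Ocoxin replicate 3 was the closest to the controls. PGK1 fell from 902 ± 16.9 to 729 ± 45.2 CPM (-0.31, edgeR adjusted p = 0.00253) and PGAM1 from 127 ± 2.89 to 105 ± 5.81 CPM (-0.27, edgeR adjusted p = 0.00927). HK2 had 84.96, 97.1 and 102 CPM in the control libraries and 94.01, 101 and 99.8 CPM in the Ocoxin libraries, which overlap (log2 fold change 0.054 ± 0.069, edgeR adjusted p = 0.697). The remaining calls were NDRG1 (-0.35), BNIP3L (-0.27), ERO1A (-0.27) and KDM3A (-0.26), all down. BNIP3 (0.19) and ADM (-0.01), which fell in TNBC, were not called, and CA9 had at most 15 counts per library. Leaving out single PAAD libraries gave 9 (without Ocoxin replicate 1) to 19 (without control replicate 3) calls, beside 3.87% and 9.77% of all genes. Calls were lost for PGAM1 (without Ocoxin replicate 1), PDK1 and BNIP3L (without Ocoxin replicate 1 or 2), KDM3A (those or control replicate 2) and ANGPTL4 (control replicate 1 or 2 or Ocoxin replicate 1 or 3), with adjusted p up to 0.0721, 0.0605, 0.0842, 0.132 and 0.205. In a fit of all 24 libraries PLOD2 was not called in PAAD (adjusted p = 0.202) or TNBC (adjusted p = 0.18).

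In PRAD, 3 of 38 members tested were altered, all down, beside 2.98% of all 17070 genes (2.4% up and 0.58% down). LOX had 12.6, 12.2 and 14.1 CPM in the control libraries and 5.77, 6.97 and 6.75 CPM in the Ocoxin libraries, without overlap, on 54 to 129 counts per library (log2 fold change -0.998 ± 0.13, edgeR adjusted p = 0.0165). HK2 had 163, 179.7 and 193 CPM in the control libraries and 137, 148 and 144 CPM in the Ocoxin libraries (log2 fold change -0.32 ± 0.063, edgeR adjusted p = 0.0428). LDHA had 158, 157 and 167 CPM in the control libraries and 138, 136 and 142 CPM in the Ocoxin libraries (log2 fold change -0.21 ± 0.04, edgeR adjusted p = 0.0387). For both enzymes every Ocoxin library lay below every control, which adds no support to calls made on these same libraries. HIF1A had 189, 182 and 178 CPM in the control libraries and 181, 169 and 175 CPM in the Ocoxin libraries, which overlap (log2 fold change -0.065 ± 0.041, edgeR adjusted p = 0.414).

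The other PRAD members stayed below the threshold for a call in this test. The log2 fold changes of all 16 glycolytic enzymes were negative, from -0.33 to -0.0073 with a median of -0.13 (0.0088 over all genes), and the median of the 21 other HIF targets tested was -0.17. PLOD2 had the lowest value, -1.58, but its libraries ranged from 2.87 to 10.4 CPM in controls and from 0.536 to 3.87 CPM with Ocoxin (edgeR adjusted p = 0.258). With the replicate block, 11 members were called, all down, 5 of them glycolytic enzymes and 6 other HIF targets, beside 8.5% of all genes. The 8 gained were PLOD2, P4HA1, PFKFB3, KDM3A, PDK1, PFKP, BNIP3L and PGK1, with adjusted p from 0.00427 to 0.0499.

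Highly expressed enzymes gave few counts in PRAD. No member passed 0.502 counts per exonic base there (ENO1), whereas ENO1 reached 18.7 in TNBC, and 65 GAPDH pseudogenes took 27.3% of the reads of GAPDH and its copies in PRAD against 2.88% to 4.88% in the other lines. A correction for reads that share a start gave 4 calls, beside 3.22% of all genes. The count was 2 without control replicate 1 or Ocoxin replicate 3, 1 without Ocoxin replicate 1, and 0 by edgeR without control replicate 2 or 3 or Ocoxin replicate 2, where 21, 15 and 12 members had an unadjusted p under 0.05 and 7, 37 and 3 of all genes were called. Without both replicate 3 libraries it was also 0 (19 at an unadjusted p under 0.05), with 14 of all genes called. DESeq2 called 7 with all libraries, 6 down and 1 up, beside 3.48% of all genes.

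In COAD few members were altered, and by little. Of 39 members tested, 4 were altered, all down, beside 2.55% of all 17659 genes (1.47% up and 1.09% down). SLC2A3, the glucose transporter GLUT3, had 142, 155 and 149.6 CPM in the control libraries and 121, 126 and 124 CPM in the Ocoxin libraries (log2 fold change -0.27 ± 0.05, edgeR adjusted p = 0.0057). CA9 had 40.7, 41.04 and 45.8 CPM in the control libraries and 36.8, 36.1 and 31.6 CPM in the Ocoxin libraries (log2 fold change -0.29 ± 0.073, edgeR adjusted p = 0.0373). HK2 had 117, 116 and 108 CPM in the control libraries and 99.9, 98.5 and 94.8 CPM in the Ocoxin libraries (log2 fold change -0.22 ± 0.052, edgeR adjusted p = 0.0244). All Ocoxin libraries lay below the controls for these 3 genes, and the lowest fitted ratio of Ocoxin to control was 0.8199 (CA9). As in TNBC, such separation of called genes adds no support of its own. GPI had 345, 347 and 369 CPM in the control libraries and 320.2, 315 and 297 CPM in the Ocoxin libraries, also without overlap (log2 fold change -0.19 ± 0.048, edgeR adjusted p = 0.0404).

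No other member was called in COAD. LDHA had 1014, 976 and 1065 CPM in the control libraries and 898, 976 and 1021 CPM in the Ocoxin libraries, which overlap (log2 fold change -0.077 ± 0.05, edgeR adjusted p = 0.485). HIF1A had 149, 142 and 149 CPM in the control libraries and 148, 144 and 146 CPM in the Ocoxin libraries, which also overlap (log2 fold change -0.004 ± 0.048, edgeR adjusted p = 0.983). The medians were -0.052 for 16 glycolytic enzymes and 0.055 for 22 other HIF targets, beside -0.0053 over all genes. ANGPTL4 was not tested, with at most 10 counts per library. The count of 4 became 1 without control replicate 1 or Ocoxin replicate 3, 2 without control replicate 3, and 0 by edgeR without control replicate 2 or Ocoxin replicate 2, where 5 and 7 members had an unadjusted p under 0.05 and 0.768% and 0.669% of all genes were called. Without both replicate 3 libraries 2 members were called, beside 6.36% of all genes. DESeq2 called 5 with all libraries, beside 3.54% of all genes.

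Summed over the genes of a class, the decrease was largest in TNBC among the lines counted alike. The 16 glycolytic enzymes summed to 7718 ± 103 CPM in control and 6051 ± 112 CPM with Ocoxin in TNBC (mean ± SD, n = 3), or 78.4% of control, and the 23 other HIF targets to 73.1%. In PAAD the sums stood at 89.97% and 90.99% of control, in PRAD at 90.5% and 91.6%, and in COAD at 95.3% and 101%. These sums are ruled by the genes with the most counts, such as ENO1, and were not tested. In PRAD highly expressed enzymes gave few counts, so its percentages cannot be set against those of the other lines. Whether the low counts changed those percentages was not tested.

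**Figure D4:**
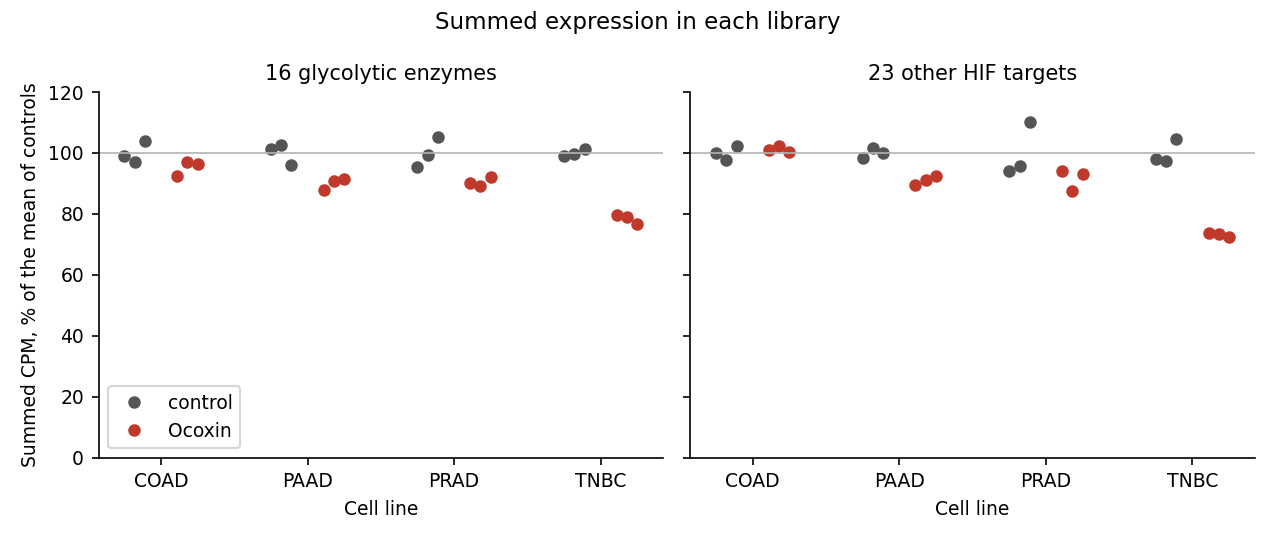
Summed CPM of the 16 glycolytic enzymes (left) and the 23 other HIF targets (right) in each of the 24 libraries, as a percentage of the mean of the 3 controls of the same line; points are libraries in replicate order. The TNBC Ocoxin libraries lie lowest in both panels, at a mean of 78.4% and 73.1%, and the COAD Ocoxin libraries lie close to the controls.

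COAD and TNBC received the same 1:700 dilution and were counted in the same table, so their responses could be tested against each other. In an edgeR fit of these 12 libraries, the response of 27 of 40 members differed, in each case lower in TNBC. Of all 20163 genes, 10.5% differed in either direction, and the share lower in TNBC was not counted. SLC2A3 and ANGPTL4 are among the 27, but passed the filter only through the line where they were higher. Their calls are therefore no measure of a difference in response. Of the 27, 10 were glycolytic enzymes and 17 were other HIF targets, SLC2A3 and ANGPTL4 included. The median difference was -0.40 over the members and -0.0098 over all genes. Apart from SLC2A3 and ANGPTL4, the largest differences were those of NDRG1 (-2.36 ± 0.12, edgeR adjusted p = 7.17e-11), BNIP3 (-2.33 ± 0.31, edgeR adjusted p = 5.61e-05), CA9 (-2.24 ± 0.15, edgeR adjusted p = 3.40e-09) and ADM (-1.53 ± 0.23, edgeR adjusted p = 2.00e-04), of which BNIP3 and CA9 carry the uncertainty in counting given above for their levels. SLC2A1 was not called in COAD (0.064) and fell in TNBC (-0.67), and the responses differed (-0.74 ± 0.055, edgeR adjusted p = 8.44e-09). So did those of LDHA (-0.77 ± 0.066, edgeR adjusted p = 1.37e-07) and PGK1 (-0.62 ± 0.063, edgeR adjusted p = 1.84e-06).

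Among the 13 members whose difference was not called was HK2, with -0.016 (95% interval -0.17 to 0.14). ENO1, another of them, had -0.046 (-0.15 to 0.062). HIF1A differed by 0.076 (-0.046 to 0.20), which was not called. The fitted differences of SLC2A3 and ANGPTL4 rest on near-empty groups (at most 6 counts per TNBC library and at most 10 per COAD library) and are no measure of size. Leaving out single libraries gave 23 to 26 calls, and the share of all genes called in those fits was not counted. Calls were lost for PFKP (without any COAD library or either of TNBC Ocoxin replicates 1 and 2, adjusted p up to 0.105), PFKL (8 of 12 libraries, up to 0.12), HK1 (6 of 12, up to 0.0817), ANKRD37 (without TNBC control replicate 3 or Ocoxin replicate 2, up to 0.0628), ANGPTL4 (without COAD Ocoxin replicate 1, 0.0964) and SLC2A3 (without TNBC control replicate 1, 0.0911).

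**Figure D5:**
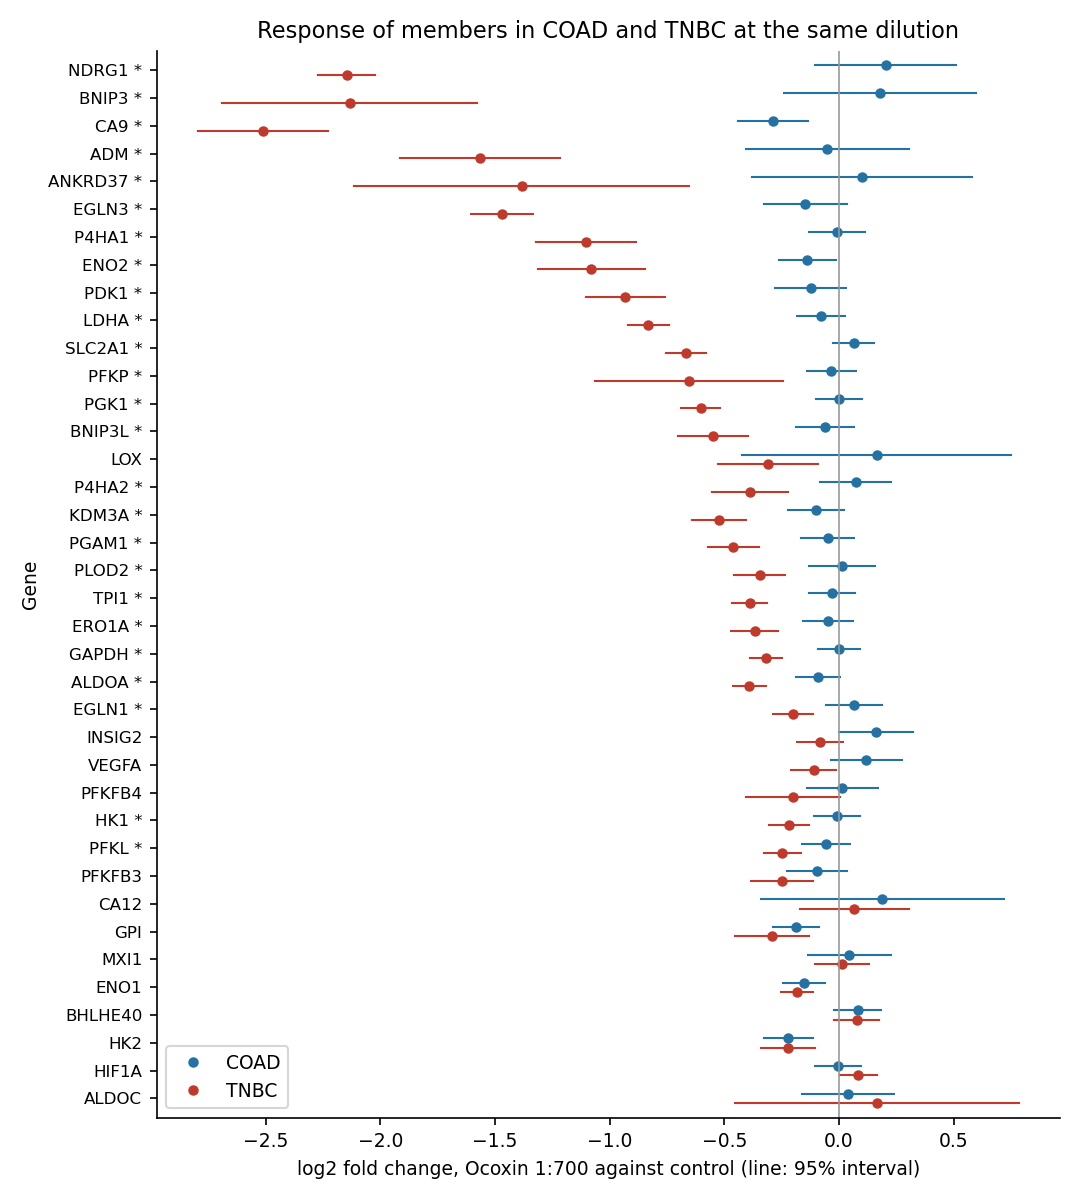
Log2 fold changes with Ocoxin at 1:700 in COAD (blue) and TNBC (red), with 95% intervals, for the 38 members tested in both lines; the order follows the difference, and asterisks mark the 25 members shown whose difference was called by edgeR. The COAD points lie between -0.29 and 0.20, whereas the TNBC points reach -2.51.

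Across the 4 lines, 6 members were called in none, 18 in 1 line, 14 in 2 lines and 2 in 3 lines. The matching shares over all genes were not counted, so whether this sharing is unusual cannot be told. The 2 called in 3 lines were HK2 and LDHA. HK2 was downregulated in COAD, PRAD and TNBC with log2 fold changes of -0.22, -0.32 and -0.22. LDHA was downregulated in PAAD, PRAD and TNBC with log2 fold changes of -0.37, -0.21 and -0.83. With 1 library left out, the call of HK2 was kept in 2 of 6 fits in COAD, 1 of 6 in PRAD and 5 of 6 in TNBC. That of LDHA was kept in 6 of 6 in PAAD and in TNBC, but in 0 of 6 in PRAD. Those called in none were BHLHE40, MXI1, ALDOC, PFKFB4, CA12 and INSIG2. EGLN3 was downregulated in PAAD and TNBC, where controls held 106 and 59.3 CPM, and was not called in COAD, where controls held 17.9 CPM. Control levels in the 3 lines counted alike differed widely for several members: NDRG1 stood at 4.03 CPM in COAD, 174 in PAAD and 274 in TNBC, and SLC2A1 at 1127, 691 and 192 CPM.

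Per kilobase of exon, the most abundant members in TNBC controls were the enzyme genes ENO1, with 482 CPM per kb, GAPDH, with 369, and ALDOA, with 260.3. Other enzymes were far lower, such as HK2 with 10.5 and ALDOC with 0.264 CPM per kb, and overlapped with the other HIF targets, which reached 76.6 for BHLHE40. NDRG1 had 27.9 CPM per kb, CA9 11.6 and BNIP3 1.64. With Ocoxin, the level of ENO1 was 424 CPM per kb and that of CA9 2.03. CA9, NDRG1 and BNIP3, which fell most on the log2 scale in TNBC, were thus not among the members with the highest levels.

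Beyond the 40 members, 82 further genes of the pathways were examined as 3 lists. These lists too were chosen with earlier results of these data known. In TNBC 20 of 36 other hypoxia-induced genes tested were altered (19 down, 1 up), with a median log2 fold change of -0.21, as were 6 of 22 other genes of glycolysis and pyruvate metabolism (4 down, 2 up) and 6 of 12 HIF subunits and regulators (4 down, 2 up). Of all genes tested in TNBC 21% were altered, and the 27.3% of the other glycolysis and pyruvate genes was near that share. SLC16A3, the lactate exporter MCT4, fell from 32.9 ± 1.51 to 15.1 ± 0.487 CPM (-1.12, edgeR adjusted p = 5.36e-07). NT5E, an ectonucleotidase gene, fell from 2.61 ± 0.814 to 1.22 ± 0.326 CPM (-1.09, edgeR adjusted p = 0.0117), and LOXL2, a lysyl oxidase gene, from 22.2 ± 0.195 to 12.3 ± 1.23 CPM (-0.85, edgeR adjusted p = 2.87e-05).

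In the other lines fewer genes of these lists were called. In PAAD 12 of 76 genes tested were altered, 6 in each direction, beside 8.33% of all genes. The largest changes were those of STC1, a secreted glycoprotein gene (0.68, edgeR adjusted p = 5.01e-05), EFNA3, an ephrin gene (-0.58, edgeR adjusted p = 0.0421), and PGF, a relative of VEGFA (0.56, edgeR adjusted p = 0.00161). In PRAD 5 of 67 were altered (2 up, 3 down), beside 2.98% of all genes. The largest changes there were those of TMEM45A (0.85, edgeR adjusted p = 0.0219), the pyruvate dehydrogenase kinase gene PDK3 (-0.34, edgeR adjusted p = 0.0492) and the lipid droplet gene HILPDA (-0.30, edgeR adjusted p = 0.0411). In COAD 3 of 72 (4.17%) were altered, all of them up, beside 2.55% of all genes. Among them were DDIT4, an inhibitor of mTORC1 signalling (0.85, edgeR adjusted p = 0.0018), and IGFBP3, which binds insulin-like growth factors (0.83, edgeR adjusted p = 0.0184). By edgeR and by DESeq2, 0 HIF subunits and regulators were altered in COAD (2 of 13 at an unadjusted p under 0.05) and in PRAD (1 of 13), and 0 of 24 other glycolysis genes in COAD (3 at an unadjusted p under 0.05).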

How the data were processed

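Poly(A) RNA of 24 libraries was measured. According to its methods, reads were trimmed (fastp), mapped to hg38 (STAR) and freed of duplicates (picard), and the authors deposited whole-number read counts per gene from featureCounts 2.0.3 (primary alignments on exons, no strand). Per the file headers, the PRAD table was counted without the paired-end option, unlike the table of the other lines. No sample column was left unused. Symbols were matched through the gene identifiers (56948 of 58051 had one).

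Counts were filtered with filterByExpr, scaled by TMM and tested per line with edgeR 4.0.16 (R 4.3.3, robust quasi-likelihood F-test, 3 against 3 libraries). P-values were adjusted over all genes tested. Responses of TNBC and COAD were compared by an interaction term over 12 libraries. The fit was tested on simulated data. Alternatives were DESeq2 1.42.0, its size factors, no filter, a fit of 24 libraries, a replicate block, halved counts, a length trend, a saturation correction (PRAD), single libraries left out and, chosen after seeing the data, both replicate 3 libraries left out. The members and lists were chosen with earlier results of these data known. All 40 members could be named. Values in every library are given for HIF1A, for members called in 3 or more lines and for up to 6 called members per line with the largest change at a mean of at least 1 CPM, and up to 3 called genes per line are named from the other pathway lists, of which 1 is not reported here. The library values of LDHA and HIF1A in every line follow from this rule.

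Whether equal replicate numbers mark paired libraries is not given in the sources used here. Deviations of same-numbered libraries from their group means correlated, at the lowest, at -0.0051, 0.024, 0.091 and 0.062 (COAD, PAAD, PRAD, TNBC) over all genes tested, and at 0.081, 0.314, 0.176 and 0.285 over genes with a mean of at least 10 CPM. By the second measure, with every pair over 0.1, PAAD, PRAD and TNBC were treated as possibly paired, and blocked values stand beside their results. That rule does not separate pairing from correlation with other numbers. In TNBC, replicates 1 and 2 had 0.285 and 0.320 with the same number, and up to 0.252 and 0.346 with another. In PRAD, replicate 2 had 0.176 and 0.137, and in PAAD 0.314 and 0.137. Replicate 3 was the clearest (0.629 and -0.453 in TNBC).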

Additional observations from a re-analysis of the deposited data

Results flagged for a closer look

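The same Ocoxin dilution was followed by different responses in TNBC and COAD for 27 members, by an edgeR test of the difference itself over 12 libraries. The values below are the log2 response in TNBC minus that in COAD, and all are negative. Among glycolytic enzymes they were ENO2 -0.96, LDHA -0.77, PFKP -0.63, PGK1 -0.62, PGAM1 -0.43, TPI1 -0.37, GAPDH -0.33, ALDOA -0.31, HK1 -0.22 and PFKL -0.20. Among genes of glucose transport and pyruvate fate they were SLC2A1 -0.74, PDK1 -0.82 and SLC2A3 -4.45. The regulators EGLN3, ANKRD37, KDM3A and EGLN1 differed by -1.34, -1.496, -0.44 and -0.28. For CA9, ADM and ANGPTL4 the differences were -2.24, -1.53 and -2.91, and for the collagen-modifying genes P4HA1, P4HA2 and PLOD2 -1.11, -0.47 and -0.37. NDRG1, BNIP3, BNIP3L and ERO1A differed by -2.36, -2.33, -0.50 and -0.33. SLC2A3 and ANGPTL4 are counted among the 27, though each was near 0 counts in TNBC or COAD and passed the joint filter only through the other line. Their fitted values and calls are no measure of a difference in response.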

How the results depend on the processing

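In TNBC, the 31 members altered numbered 29 to 34 under the alternatives other than leaving out single libraries, and 27 to 29 with 1 library left out (glycolytic enzymes 11 to 14, other HIF targets 15 to 17). The share of all genes called in TNBC ranged from 11.1% (fit of 24 libraries) to 33.9% (replicate block) in the former, and from 12.9% to 21.8% in the latter. The 27 differences between TNBC and COAD numbered 25 to 30, and 23 to 26 with 1 library left out. The share of all genes called was not counted in these alternative fits of the difference. Their member counts therefore cannot be read against it. The counts of the other lines were less stable, and the causes were not tested. In a fit of all 24 libraries, COAD had 1 member altered (1 glycolytic enzyme and 0 other HIF targets, with 2 of the latter at an unadjusted p under 0.05 by edgeR), PAAD had 6 glycolytic enzymes altered, and PRAD had 11 members altered (8 other HIF targets). The share of all genes called in that fit was 1.17%, 6.91% and 4.05% (COAD, PAAD, PRAD). With the replicate block, 6 members were altered in COAD (4 glycolytic enzymes), 22 in PAAD (9 glycolytic enzymes), 11 in PRAD (5 glycolytic enzymes and 6 other HIF targets) and 34 in TNBC, and the paired fit of the difference between TNBC and COAD called 30. The share of all genes called with the block was 10.9%, 23.1%, 8.5% and 33.9% (COAD, PAAD, PRAD, TNBC). The block ended the call of 1 member, GPI in TNBC, and added ENO1 and ENO2 in COAD, HIF1A, BHLHE40, PFKFB4 and VEGFA in TNBC, and 8 members each in PAAD and PRAD. Without both replicate 3 libraries, COAD had 2 members altered (1 glycolytic enzyme, 1 other HIF target), PAAD 22 (9 glycolytic enzymes), and PRAD 0 (0 and 0, with 8 and 11 at an unadjusted p under 0.05 by edgeR). The share of all genes called there was 6.36%, 13.1% and 0.0809%. In PRAD, DESeq2 called 7 members (5 other HIF targets) and the test without a filter 8 (5 other HIF targets), and 2 other HIF targets were called with DESeq2 size factors, with the saturation correction and with the length trend removed. The share of all genes called in PRAD was 3.48% (DESeq2), 3.28% (no filter), 2.89% (size factors), 3.22% (saturation correction) and 3.33% (length trend). With counts halved, COAD had 1 glycolytic enzyme altered, beside 2.86% of all genes. With 1 library left out, members altered ranged from 0 to 4 in COAD (glycolytic enzymes 0 to 2, other HIF targets 0 to 2), 9 to 19 in PAAD (2 to 7 and 6 to 11) and 0 to 2 in PRAD (0 to 1 and 0 to 2). The share of all genes called then ranged from 0.669% to 4.33% in COAD, 3.64% to 9.77% in PAAD and 0.0173% to 2.28% in PRAD. The log2 fold change of HIF1A in COAD, -0.004 and not called, turned positive with size factors (0.000396), without both replicate 3 libraries (0.019), with counts halved (0.0068), with the length trend removed (0.000324) and without control replicate 1 (0.012), control replicate 3 (0.014), Ocoxin replicate 2 (0.016) or Ocoxin replicate 3 (0.0072), and ranged from -0.024 to 0.016 with 1 library left out. Each member called by edgeR kept its sign under all alternatives, and its call was kept in all of them for 0 of 4 in COAD, 8 of 14 in PAAD, 0 of 3 in PRAD and 24 of 31 in TNBC. PRAD had the fewest counts, and depth limits what can be said there of genes of low level. For PLOD2 in PRAD (5 to 95 counts per library) the SE was 0.71 without the block and 0.21 with it. It was called only with the block among these 2 fits (edgeR adjusted p = 0.0104), and the reason was not tested.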
